A study of Mus musculus with 6 samples.

Results

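The RNAs encoded by the mitochondrial genome were examined in mouse whole testis, collected on postnatal day 14. They are the 37 genes whose symbol starts with mt-, out of 55353 genes listed for each library: 13 mRNAs, 2 rRNAs and 22 tRNAs. The study compared 3 control animals with 3 animals of the genotype Rnu11 cKO, a conditional deletion of the gene of the U11 small nuclear RNA, called mutants here. No genotype beyond Control and Rnu11 cKO is given in the sources used here, and the Cre line and the cells it acts in are not given either. Libraries were made from total RNA after depletion of ribosomal RNA with RiboZero, with a kit that keeps the strand. Levels are given as TPM (transcripts, scaled to a fixed total per library), a share of the library corrected for transcript length, which leaves read depth unknown. U11 belongs to the minor spliceosome, the machinery for a small set of nuclear introns.

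The mitochondrial genome is a small circle that is transcribed from both strands into long precursors. The tRNAs lie between most of the rRNAs and mRNAs, and their excision releases the RNAs on either side. None of these genes has a spliceosomal intron. The mRNAs encode core subunits of complexes I, III and IV of the respiratory chain and of the ATP synthase (complex V), the rRNAs form the mitochondrial ribosome, and the tRNAs serve translation inside the organelle. In the annotation on GRCm38, 28 of the 37 genes lie on the + strand and 9 on the - strand, the latter being mt-Nd6 and 8 tRNAs.

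Rnu11 was lower in each mutant library than in each control. It read 614, 576 and 550.3 TPM in controls and 196, 393 and 203 TPM in mutants (log2 difference -1.21, SE 0.26, limma adjusted p = 0.29; -1.53 without mutant replicate 2, limma adjusted p = 0.037). With any other library left out it ran from -1.25 to -1.03, with limma adjusted p from 0.14 to 0.60. Some lists of cell type markers differed between the groups as well. All 10 Sertoli markers and all 7 Leydig markers had a higher mean in mutants, with summed levels of 1512 to 1722 TPM in controls and 2190.3 to 2841 TPM in mutants for Sertoli cells. For the Leydig cells the sums were 119 to 226 TPM and 237 to 374 TPM. All 12 meiotic prophase markers had a lower mean in mutants (449.6 to 551 TPM summed in controls, 311 to 393 TPM in mutants). In the other lists, all 5 macrophage markers were higher, and 5 of the 6 pachytene markers tested were lower. Spermatogonia markers were 4 higher and 4 lower, peritubular myoid markers 3 and 2, and endothelial markers 4 and 1. Among all genes tested, 66.4% were higher in mutants, 14.5% had every mutant above every control and 5.77% every mutant below. No marker in these lists passed limma over all genes or was at 0 in all libraries. In whole tissue, fewer cells of a type and less RNA per cell cannot be told apart.

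Of the 37 genes, 15 passed the filter of a mean of 1 TPM, namely all 13 mRNAs and both rRNAs. The 22 tRNAs were listed at 0 in all 6 libraries. Among the 15, none was called over all genes (limma, adjusted p under 0.05), where 0.0278% of 17959 genes tested were called; 2 were at an unadjusted p under 0.05, both higher in mutants and none lower, against 12.1% of all genes higher and 3.98% lower at that p. Reading these values requires a feature of the nuclear genome. A stretch of mitochondrial DNA was copied into chromosome 1, and its annotated pieces are nearly identical in sequence to 7 of the mRNAs.

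These pieces are unprocessed pseudogenes that lie side by side on the - strand of chromosome 1 (GRCm38, 24611535 to 24616197). Gm28661 copies mt-Co2, Gm10925 copies mt-Atp6, Gm28437 copies mt-Co3, Gm28438 copies mt-Nd3 and Gm10222 copies mt-Nd4l over all but the last bases of each gene. Gm29216 copies the last 483 of the 1545 bases of mt-Co1, and Gm28439 copies the opening 876 of the 1378 bases of mt-Nd4. No base differed in 5 of the 7 alignments. The remaining 2 alignments held 1 mismatch each, and the sequences around them are shown because they mark how little there is to tell a read of one gene from a read of the other. The differing base is in capitals, and positions count from 1 at the 5′ end of the mitochondrial gene: T3C in mt-Nd3, in its start codon, and A1066T in mt-Co1.
mt-Nd3: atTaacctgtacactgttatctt
Gm28438: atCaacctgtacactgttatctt
mt-Co1: ggaAttgttttatccaactcatcc
Gm29216: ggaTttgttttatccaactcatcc

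The windows lie at chrM:9459-9481 and chrM:6390-6413 on the + strand, and at chr1:24613097-24613119 and chr1:24616165-24616188 on the - strand. Of the other mRNAs, mt-Nd1 and mt-Atp8 had no annotated copy that aligned over at least 200 nt at 90% identity. A set of 8 more distant copies of other members (90.7% to 97.6% identical) averaged 0.014 to 24.0 TPM. Only annotated transcripts were searched. mt-Atp8 lies between mt-Co2 and mt-Atp6 on the mitochondrial map, and their copies leave a gap on chromosome 1 (Gm10925 ends at 24614651, Gm28661 starts at 24614885). Whether that gap holds an unannotated copy of mt-Atp8 was not examined.

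A further stretch is shared between neighbours on the mitochondrial genome itself. The reading frames of mt-Atp8 and mt-Atp6 overlap by 43 bases (chrM:7927-7969, + strand), and the same 43 bases also open Gm10925. The start codon of mt-Atp6 is in capitals.
mt-Atp8 and mt-Atp6: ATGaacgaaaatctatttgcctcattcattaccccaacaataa

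The genes mt-Nd4l and mt-Nd4 overlap by 7 bases, and mt-Nd5 and mt-Nd6 by 14 bases on opposite strands. Reads in overlaps of genes on the same strand may be assigned to either gene. Whether the authors' counting used strand is not given in the sources used here. If it did not, the same holds for mt-Nd5 and mt-Nd6, and any + strand reads across mt-Nd6 may count toward it.

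More TPM was listed for the nuclear copy than for its mitochondrial gene in 42 of 42 values (7 pairs in 6 libraries). The share of a pair's TPM that stood on the mitochondrial gene ran from 3.23% to 49.3%, and from 3.23% to 45.0% for the 5 pairs that match over nearly the whole gene. It differed between libraries of the same group. For mt-Atp6, a membrane subunit of the ATP synthase, it was 41.6%, 9.10% and 8.38% in controls and 3.85%, 24.8% and 4.98% in mutants. For mt-Co3, a subunit of cytochrome c oxidase, it was 45.0%, 16.9% and 16.3% in controls and 14.9%, 22.5% and 14.4% in mutants. Control replicate 1 had the highest share of the 6 libraries in 6 of the 7 pairs, and mutant replicate 2 was highest in the other pair and next in 5. Neither genotype stood apart in any pair. Whether the TPM on the copies came from mitochondrial or from nuclear transcripts was not tested.

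**Figure D1:**
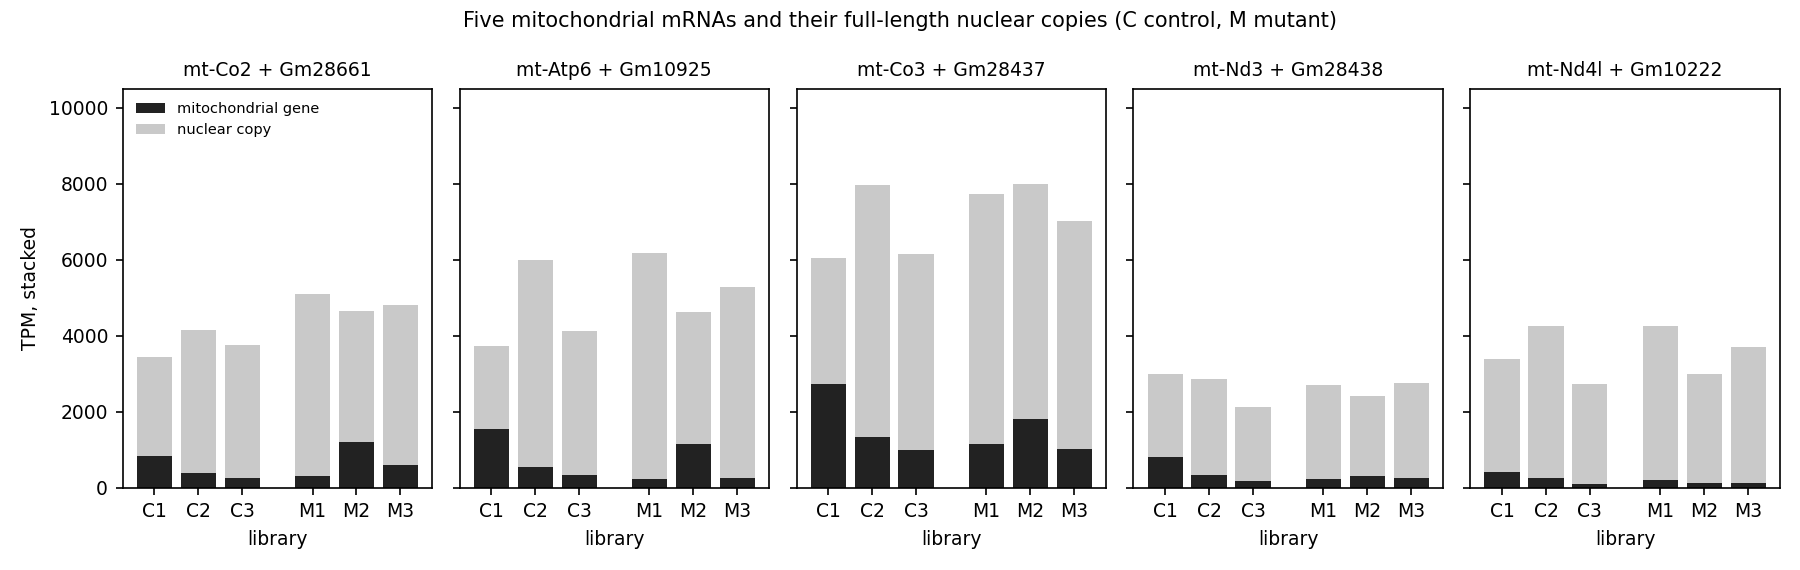
Stacked bars give the TPM of 5 mitochondrial mRNAs (dark) and of the nuclear copy of each (light) in each library, C1 to C3 being controls and M1 to M3 mutants. The dark part is largest in C1 or M2, while the whole bar varies less between libraries.

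Adding the copy to its gene narrowed the spread. Here the copy's TPM was weighted by its length relative to the mitochondrial gene, a step chosen after the values were seen. The highest library of mt-Atp6 was 6.52 times the lowest on the gene's own values and 1.65 times with the copy added. For mt-Co2, mt-Nd3, mt-Nd4l and mt-Co3 this ratio fell from 4.55, 4.48, 4.71 and 2.71 to 1.48, 1.40, 1.56 and 1.32. The spread within groups (residual SD of log2 values) of these 5 genes was 0.61 to 1.19 alone and 0.11 to 0.29 with copies, beside a median of 0.18 in 490 other genes of at least 100 TPM. For mt-Nd4, whose copy covers only part of it, the spread instead went from 0.19 to 0.28. For the 5 genes with nearly full-length copies, the copy held most of the pair's TPM in every library, so the sums follow it closely. Over all libraries the copies alone ran from 2602 to 4776 TPM for Gm28661, 2175 to 5935 TPM for Gm10925 and 3327 to 6636 TPM for Gm28437. Gm28438 ran from 1960 to 2543 TPM and Gm10222 from 2637 to 4053 TPM. Values of the 7 genes are therefore given both ways, and their single levels are uncertain.

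The tRNAs carry amino acids to the mitochondrial ribosome, and all 22 were listed at 0 TPM in every library. They are 59 to 75 nt long. The shortest and the longest are shown to give an idea of their size, with the anticodon in capitals. They are mt-Ts2, a serine tRNA at chrM:11613-11671, and mt-Tl1, a leucine tRNA at chrM:2676-2750, both on the + strand.
mt-Ts2: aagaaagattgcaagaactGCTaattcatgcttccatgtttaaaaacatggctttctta
mt-Tl1: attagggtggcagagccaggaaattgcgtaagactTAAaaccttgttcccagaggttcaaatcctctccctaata

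Genes of this size were at 0 whatever their kind. Of 979 other genes with 1 annotated transcript of at most 75 nt, 978 (99.9%) were also listed at 0 in all libraries. The share was 92.4% at 91 to 110 nt, 57.3% at 151 to 300 nt and 15.7% above 1000 nt. Why genes of this size are listed at 0 was not tested. A value of 0 here therefore gives no tRNA level and no comparison between the groups. The tRNA share of a library and its ratio to the mRNAs were accordingly not tested.

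**Figure D2:**
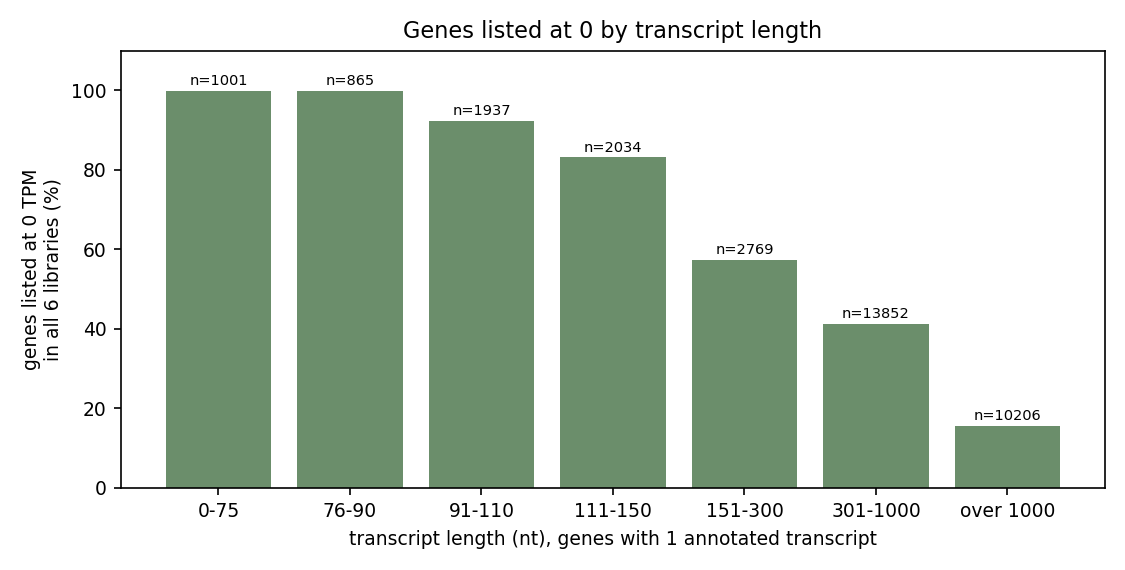
Bars give the percent of genes listed at 0 TPM in all 6 libraries against transcript length in nt, for genes with 1 annotated transcript, with the number of genes above each bar. In the bin up to 75 nt, which holds the mitochondrial tRNAs, and in the next, up to 90 nt, nearly every gene is at 0.

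The 2 rRNAs had the smallest p-values of the members. mt-Rnr2 (ENSMUSG00000064339.1, chrM:1094-2675, + strand), the rRNA of the large ribosomal subunit, read 46.3, 55.3 and 55.0 TPM in controls and 78.7, 80.9 and 60.0 TPM in mutants. Every mutant library was above every control, with mutant replicate 3 the closest to them. Among all genes tested, 14.5% had every mutant above every control. The means were 52.2 ± 5.11 and 73.2 ± 11.5 TPM (SD, n = 3), a log2 difference of 0.47 (SE 0.14), which did not pass over all genes (limma, adjusted p = 0.29; unadjusted p = 0.013).

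mt-Rnr1 (ENSMUSG00000064337.1, chrM:70-1024, + strand), the rRNA of the small subunit, read 143, 90.3 and 112 TPM in controls and 169.7, 167 and 142 TPM in mutants. The groups overlapped, since control replicate 1 stood level with mutant replicate 3. The means were 115 ± 26.5 and 159.7 ± 15.3 TPM (SD, n = 3), and the log2 difference was 0.49 (SE 0.18; limma, adjusted p = 0.29; unadjusted p = 0.028). It was 0.65 without control replicate 1 and 0.33 without control replicate 2, and mt-Rnr2 stood at 0.39 and 0.52 in the same fits. In TPM, mt-Rnr1 was 3.09, 1.63 and 2.04 times mt-Rnr2 in controls and 2.16, 2.07 and 2.37 times in mutants, with no separation of the groups (exact permutation test, p = 1.0).

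Summed, the rRNAs took 0.0189%, 0.0146% and 0.0167% of the TPM of control libraries and 0.0248%, 0.0248% and 0.0202% of mutant libraries. No control reached the lowest mutant, and the exact permutation test gave p = 0.10, the smallest that 3 against 3 libraries allow. Both rRNAs stood below every one of the 13 mRNAs by mean level once copies were added to these, in libraries from which ribosomal RNA had been depleted. Genes that hold leftover cytosolic rRNA and passed the filter had lower means in mutants, the opposite direction to the mitochondrial rRNAs. Gm26917 had a mean of 7156 TPM (control) and 5934 TPM (mutant) (log2 difference -0.26, limma adjusted p = 0.46), and Gm42418 1498 and 1145 TPM (-0.37, limma adjusted p = 0.37). CT010467.1, a further such gene, stood at -0.46 (limma adjusted p = 0.35). AY036118, below the filter of 1 TPM and not tested, had means of 0.112 TPM (control) and 0.187 TPM (mutant). Its mutant libraries read 0.407, 0.117 and 0.0360 TPM. The groups overlapped in all of these. The part of depletion, and of the higher Sertoli and Leydig markers, in the rRNA values was not tested.

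**Figure D3:**
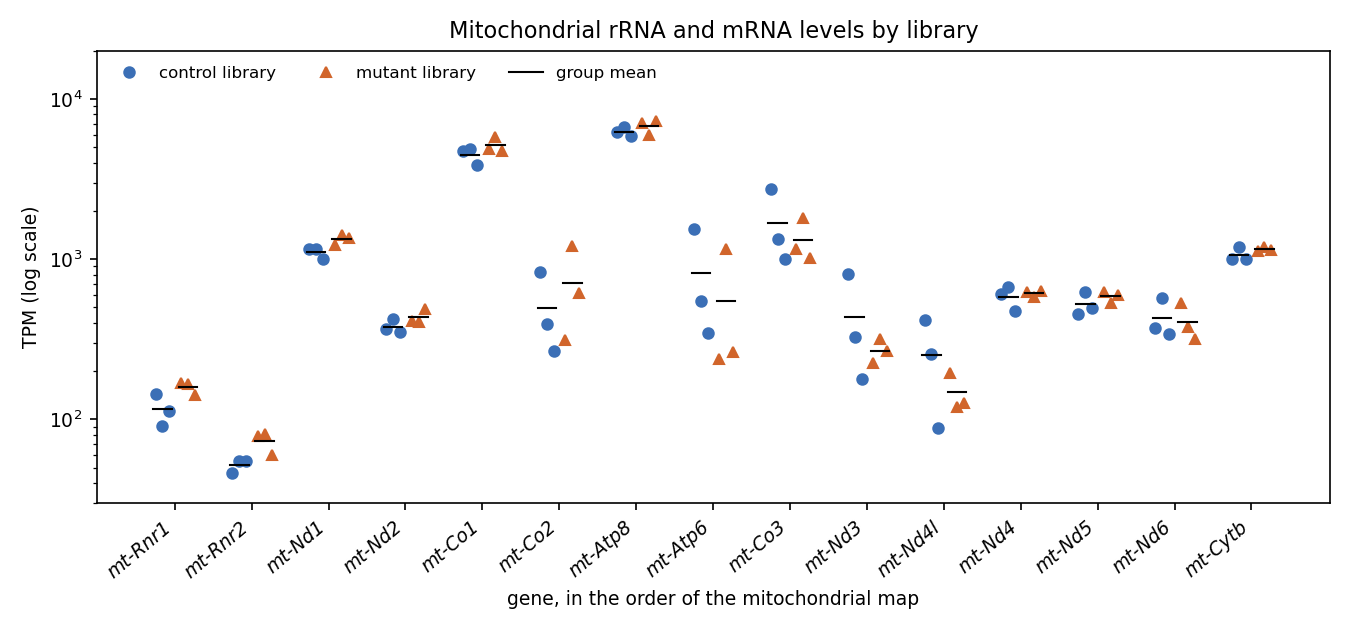
Points give the TPM of each mitochondrial rRNA and mRNA in each control library (circles) and mutant library (triangles) on a log scale, in map order, with group means as lines. The libraries of mt-Co2, mt-Atp6, mt-Co3, mt-Nd3 and mt-Nd4l scatter most, and those of mt-Nd1 and mt-Rnr2 do not overlap between groups.

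Complex I, the NADH dehydrogenase, has 7 of its membrane subunits encoded here. mt-Nd1 (ENSMUSG00000064341.1, chrM:2751-3707, + strand) read 1160.2, 1157 and 1008 TPM in controls and 1229.6, 1423 and 1346 TPM in mutants. All mutants were above all controls, and the gap between the groups was small beside the range within them. Its log2 difference was 0.27 (SE 0.13; limma, adjusted p = 0.33), and 0.13 after scaling to nuclear protein-coding genes (limma, adjusted p = 0.59). mt-Nd2 read 367, 421 and 349 TPM in controls and 413, 404 and 488 TPM in mutants, where control replicate 2 lay above mutants 1 and 2 (log2 difference 0.20, SE 0.13; limma, adjusted p = 0.43). mt-Nd5 read 456, 619.9 and 493 TPM in controls and 624, 535 and 599.8 TPM in mutants, again with control replicate 2 among the mutants (0.17, SE 0.15; limma, adjusted p = 0.53).

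The other complex I genes either share sequence with a copy or lie on the opposite strand. mt-Nd4 read 602, 670.3 and 472 TPM in controls and 622, 582 and 632 TPM in the mutants, which all fell inside the control range (log2 difference 0.09, SE 0.15). With Gm28439 added it stood at 0.13 (SE 0.20; limma, adjusted p = 0.76). mt-Nd3 read 804, 328 and 179.5 TPM in controls and 224, 315 and 265 TPM in mutants, so that the spread among controls covered every mutant. Its log2 difference of -0.45 (SE 0.50) was 0.13 without control replicate 1. With Gm28438 added, the libraries read 2968, 2849 and 2123 TPM against 2689.7, 2412 and 2739 TPM, and the log2 difference was -0.01 (SE 0.17; limma, adjusted p = 0.99).

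mt-Nd4l read 414, 255 and 88.0 TPM in controls and 196, 119 and 126 TPM in mutants, all of which lay between the extremes of the controls (log2 difference -0.55, SE 0.53; -0.06 without control replicate 1). With Gm10222 added it read 3355, 4220.4 and 2699 TPM in controls and 4207, 2959 and 3677 TPM in mutants (0.09, SE 0.22; limma, adjusted p = 0.85). mt-Nd6, the only mRNA on the - strand, read 371, 570.1 and 343 TPM in controls and 532, 375 and 316 TPM in mutants. Control replicate 2 and mutant replicate 1 were its high libraries, and the log2 difference was -0.07 (SE 0.26; limma, adjusted p = 0.91).

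Complex III, the cytochrome bc1 complex, has mt-Cytb as its sole subunit from this genome. It read 998, 1195 and 996 TPM in controls and 1131, 1196 and 1143 TPM in mutants, the narrowest range of the members (the highest library was 1.20 times the lowest). Control replicate 2 matched the highest mutant, and the log2 difference was 0.13 (SE 0.12; limma, adjusted p = 0.59).

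Complex IV, cytochrome c oxidase, has 3 catalytic core subunits encoded here. mt-Co1 read 4729, 4886 and 3856 TPM in controls and 4893, 5771 and 4739 TPM in mutants, where mutant replicate 2 was high and control replicate 3 low (log2 difference 0.20, SE 0.17; limma, adjusted p = 0.56). With Gm29216 added the log2 difference was also 0.20 (SE 0.17). mt-Co3 read 2727, 1345 and 1007 TPM in controls and 1151, 1799 and 1015 TPM in mutants, where control replicate 1 alone set the direction: the log2 difference was -0.27 (SE 0.39) with it and 0.14 without it. With Gm28437 added it read 6049.8, 7973 and 6156 TPM in controls and 7722, 7987 and 7025 TPM in mutants (0.18, SE 0.17; limma, adjusted p = 0.59).

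mt-Co2 (ENSMUSG00000064354.1, chrM:7013-7696, + strand), takes electrons from cytochrome c. Its own values were 829.9, 394 and 267 TPM in controls and 315, 1213 and 613 TPM in mutants, with a log2 difference of 0.47 (SE 0.57) that was -0.01 without mutant replicate 2. With Gm28661 added, the libraries read 3421, 4136 and 3746 TPM in controls and 5070.2, 4633 and 4802 TPM in mutants. Every mutant was then above every control, at 3767 ± 358 and 4835 ± 220.4 TPM (SD, n = 3). The log2 difference of 0.36 (SE 0.14) did not pass over all genes (limma, adjusted p = 0.30; unadjusted p = 0.038), and it ran from 0.30 to 0.43 with 1 library left out. After scaling to nuclear protein-coding genes it was 0.22 (limma, adjusted p = 0.43), and after median-ratio scaling 0.25. As a part of all mitochondrial mRNA with copies, mt-Co2 made up 9.39%, 9.20% and 10.7% in controls and 11.0%, 11.1% and 11.2% in mutants. The groups did not overlap (exact permutation test, p = 0.10, the smallest possible), which held for the share of 1 of the 13 mRNAs. Every mutant was above every control in 14.5% of all genes by level, and no such rate was computed for shares. The 13 shares sum to the whole and are not independent, and this gene was singled out after its values were seen.

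Complex V, the ATP synthase, has 2 subunits encoded here, read from 1 bicistronic mRNA. mt-Atp8 read 6222, 6689.8 and 5866 TPM in control and 7083, 5971 and 7266 TPM in mutant libraries, of which replicate 2 lay among the controls (log2 difference 0.11, SE 0.17; limma, adjusted p = 0.75). mt-Atp6 read 1549, 545 and 347 TPM in controls and 238, 1149.9 and 263 TPM in mutants, where control replicate 1 and mutant replicate 2 were the high libraries. The log2 difference was -0.67 (SE 0.74); without mutant replicate 2 it was -1.41, and without control replicate 1 it was -0.06. With Gm10925 added, mt-Atp6 read 3715, 5968 and 4118 TPM in controls and 6146, 4627 and 5252 TPM in mutants (0.24, SE 0.22; limma, adjusted p = 0.58). Although they share an mRNA, mt-Atp8 was listed above mt-Atp6 in all 6 libraries, even with the copy added. For mt-Atp8 itself no copy was added, and reads lost to an unannotated copy were not examined.

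**Figure D4:**
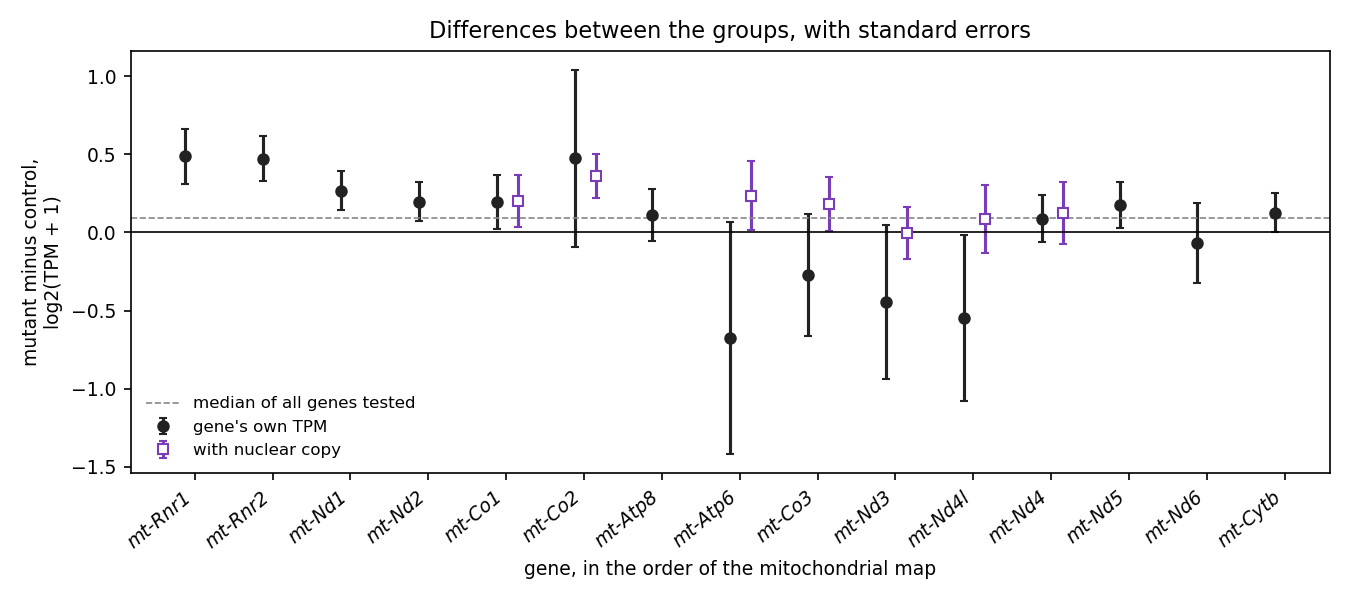
Points give the log2 difference (mutant minus control) of each rRNA and mRNA with its standard error, from the gene's own TPM (filled circles) and, for the 7 genes with a near-identical copy, with the copy added (open squares). The 4 most negative filled points move to between -0.01 and 0.24 once the copy is added.

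By level per length, with copies added, the mRNAs fell into a high and a low part. mt-Co1 (mean 7171 TPM over 6 libraries) and mt-Co3 (7152 TPM) came highest with mt-Atp8 (6516 TPM), and these could not be ordered: mt-Co1 was above mt-Co3, and mt-Co3 above mt-Atp8, in 4 libraries of 6 each. mt-Atp8 was above the next gene in all libraries. mt-Atp6 (4971 TPM), mt-Co2 (4301 TPM), mt-Nd4l (3519.7 TPM) and mt-Nd3 (2630.1 TPM) followed. mt-Nd3 was above mt-Nd1 (1221 TPM) in 6 of 6 libraries. This division depends on the added copies. On their own values mt-Atp6 averaged 682 TPM, mt-Co2 605 TPM, mt-Nd3 353 TPM and mt-Nd4l 200 TPM, all below mt-Nd1. By contrast, mt-Co1 (4812 TPM) and mt-Co3 (1507 TPM) were above mt-Nd1 on their own values too. mt-Nd1, mt-Nd4 (1213 TPM) and mt-Cytb (1110.1 TPM) overlapped, each being above the next in 4 of 6 libraries. mt-Nd5 (555 TPM) stood above mt-Nd6 (418 TPM) in all libraries, and mt-Nd6 and mt-Nd2 (407 TPM) exchanged places, with mt-Nd6 higher in 3 of 6.

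None of the ratios between RNA classes separated the groups. The median log2 difference was 0.48 for the 2 rRNAs and 0.11 for the 13 mRNAs on their own values (8 higher, 5 lower), beside 0.09 for all genes tested, of which 66.4% were higher in mutants. With copies added, the mRNA median was 0.17, with 11 higher and 2 lower, and for the 6 mRNAs without an annotated near-identical copy it was 0.15. The direction of many of these small differences depends on the scale. Rescaling libraries to nuclear protein-coding genes moved the median of all genes by -0.12, to -0.03. The rRNAs were then at 0.33 and 0.35, the mRNAs with copies at a median of 0.03 with 7 of 13 higher, and 9 of 13 above the median gene. On that scale mt-Nd2 stood at 0.057, mt-Nd5 at 0.034 and mt-Co1 at 0.055, and with copies mt-Atp6 at 0.096 and mt-Co3 at 0.041.

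The ratio of summed rRNA to summed mRNA had a log2 value of -6.81, -7.03 and -6.51 in controls and -6.23, -6.39 and -6.54 in mutants. Control replicate 3 fell among the mutants, and the difference of 0.40 was not separated (exact permutation test, p = 0.20). With copies added to the mRNAs it was -7.59, -8.27 and -7.71 in controls and -7.53, -7.39 and -7.73 in mutants. Control replicate 2 was then the lowest library, and the difference was 0.30 (exact permutation test, p = 0.30).

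The 13 mRNAs took 2.12%, 1.91% and 1.53% of the TPM of control libraries and 1.87%, 2.09% and 1.88% of mutant libraries, with controls on both sides of the mutants (exact permutation test, p = 0.90). With copies added the shares were 3.64%, 4.50% and 3.50% in controls and 4.61%, 4.17% and 4.30% in mutants. Control replicate 2 again lay among the mutants (exact permutation test, p = 0.30). Relative to nuclear protein-coding TPM, the log2 ratio of mitochondrial mRNA averaged -3.84 ± 0.26 in controls and -3.90 ± 0.08 in mutants (SD, n = 3; exact permutation test, p = 0.80), and with copies added -2.77 ± 0.15 and -2.73 ± 0.14 (SD, n = 3; exact permutation test, p = 0.90). mt-Nd6 relative to the other 12 mRNAs differed by -0.15 on the log2 scale (exact permutation test, p = 0.60). With copies added to these it differed by -0.25 (exact permutation test, p = 0.40). Since it is not known whether counting used strand, this ratio cannot be read as the - strand against the + strand.

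**Figure D5:**
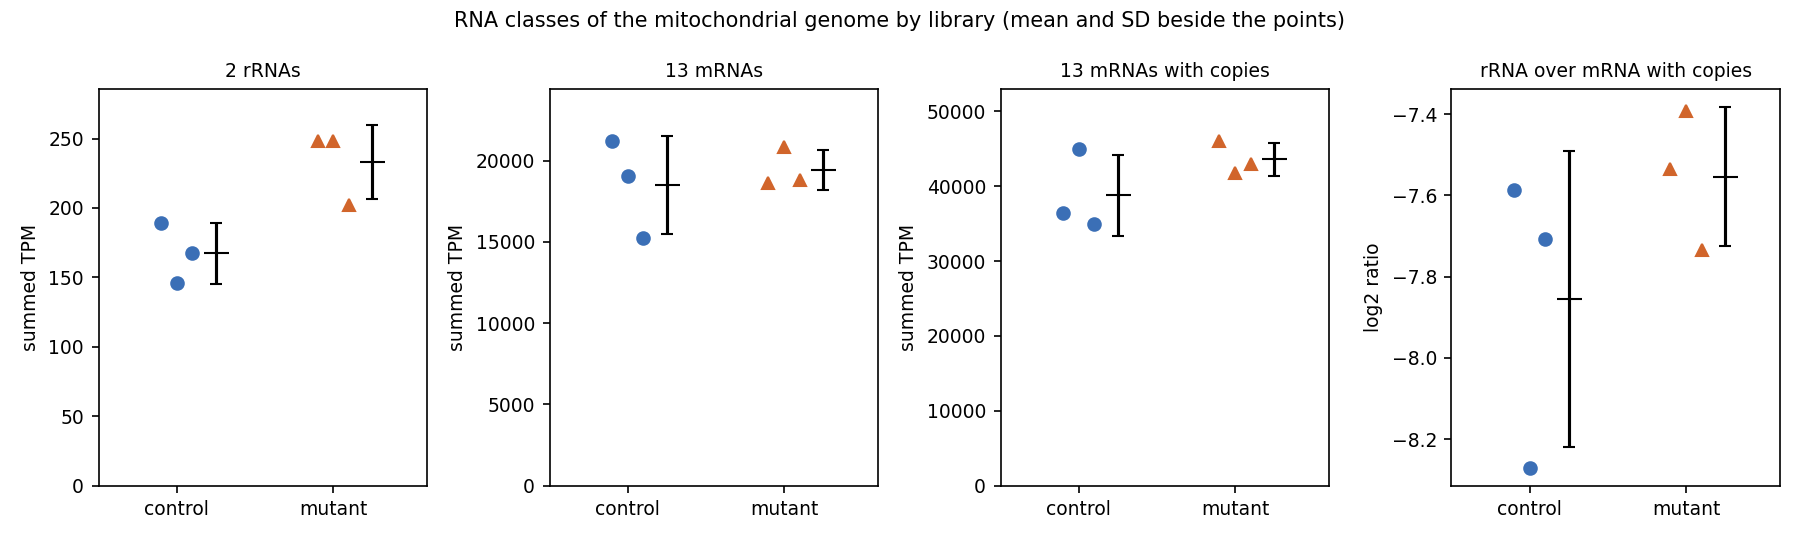
Panels give, for each control and mutant library, the summed TPM of the 2 rRNAs, of the 13 mRNAs and of the 13 mRNAs with nuclear copies, and the log2 ratio of rRNA to mRNA with copies, with the mean and SD beside the points. In the rRNA panel alone, the 3 mutant libraries lie above the 3 controls.

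Mitochondrial RNA is made, cut and degraded by proteins of the nuclear genome. Of 40 names on a list of such factors, 39 were in the files and all of these were tested. None was called over all genes (limma), 28 had a higher and 11 a lower mean log2 value, and 1 was at an unadjusted p under 0.05. Their median log2 difference of 0.08 was close to the 0.09 of all genes. Every mutant was above every control in 4 of the 39 factors and below in 1, where the shares of all genes were 14.5% and 5.77%.

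Hsd17b10, a subunit of the mitochondrial ribonuclease P that cuts the 5′ ends of tRNAs, had the smallest p-value. It read 14.0, 14.8 and 13.3 TPM in controls and 16.2, 21.6 and 16.9 TPM in mutants, without overlap (log2 difference 0.35, SE 0.12; limma, adjusted p = 0.29). Its catalytic partner Prorp averaged 3.46 ± 0.44 and 4.33 ± 0.61 TPM (SD, n = 3; 0.26, SE 0.13; limma, adjusted p = 0.35). Mrm1, which methylates the large rRNA, averaged 8.26 ± 1.79 and 11.2 ± 1.86 TPM (0.41, SE 0.18), and Fastkd1, an RNA-binding protein of the organelle, 14.0 ± 1.34 and 17.6 ± 2.56 TPM (0.30, SE 0.13; SD, n = 3; limma, adjusted p = 0.31 and 0.32). Ptcd2 and Mterf3 stood at 0.18 each. After scaling to nuclear protein-coding genes these 6 factors ran from 0.041 (Mterf3) to 0.28 (Mrm1), with Hsd17b10 at 0.21, and Polrmt stood at -0.19. The polymerase gene Polrmt, at means of 22.1 ± 1.92 (control) and 21.3 ± 2.17 TPM (mutant), and the transcription factor Tfam, which also packs mitochondrial DNA, at 16.8 ± 1.63 and 17.3 ± 2.61 TPM (SD, n = 3), had log2 differences of -0.06 and 0.03 (limma, adjusted p = 0.81 and 0.91).

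The authors' deposited table lists a single-run log2 fold change of 0.49 for mt-Rnr2, 0.47 for mt-Rnr1, 0.52 for mt-Co2 and -0.57 for mt-Atp6. In the same deposited table, the value named confident is 0.53 for mt-Rnr2 and 0.33 for mt-Rnr1, and 1.18 for mt-Co2 and -0.39 for mt-Atp6. In both columns of the authors' deposited table mt-Co2 has the highest value of the 13 mRNAs, and mt-Nd4l the lowest (-0.78 single run, -1.02 confident). The group averages deposited with them equal the means of the libraries' own values used here, without copies, so they are no separate measurement. How the value named confident was computed is not given in the sources used here.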

How the data were processed

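RNA was measured in 6 whole testes, grouped by the genotype in the labels, with each library taken as 1 animal. The authors deposited TPM per gene and library, and a table of group averages with log2 fold changes, per the file headers. The submitters' processing notes name HISAT2 and the build GRCm38. The tool behind the TPM values is not given in the sources used here, and how it divides reads that match 2 genes bears on the values of mitochondrial genes with nuclear copies.

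Testing covered genes whose mean was 1 TPM or more, on log2(TPM + 1) with limma 3.58.1 (trend, two-sided, Benjamini-Hochberg over all genes tested) in R 4.3.3; a log2 difference is mutant minus control on this scale. Sums and ratios were tested by a two-sided exact permutation test. Annotation and sequences came from GENCODE M21 (53388 of 55353 symbols matched). Copies were found with BLAST 2.17.0 (at least 200 nt, 90% identity; near-identical means at least 99%), and added by TPM times length. Nuclear factors are named by the 6 smallest p-values plus Polrmt and Tfam; all rRNAs and mRNAs are named. Members, lists and markers were chosen with earlier results of these data known. The fit was also run on simulated data with independent noise for each gene. That run does not cover genes that share reads with a copy, and no result here rests on it. Alternatives were another pseudocount, other filters, 2 scalings, a fit without trend, blocking on replicate number, leaving out each library, and, after the data were examined, copies added or genes with copies left out.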

Additional observations from a re-analysis of the deposited data

How the results depend on the processing

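No mitochondrial gene and no listed nuclear factor was called under any alternative tried. Of 449 values recomputed, 418 kept direction and call, 30 changed sign and 1 gained a call, which was Rnu11 without mutant replicate 2. Replicate numbers did not pair the libraries (correlations of deviations of -0.07, 0.03 and 0.08 for replicates 1 to 3), and with the replicate block 0 mitochondrial genes were called, as without it. Over all genes, limma called 5 (2890 at an unadjusted p under 0.05), 0 with the replicate block (3422 at that p), 0 with no filter (3881), 8 with a pseudocount of 0.1, 3 with a filter of 5 TPM, with either scaling or without the trend, and 4 to 9 with 1 library left out. The mRNA share of TPM (0.09 percentage points higher in mutants) was -0.300 over nuclear protein-coding plus mitochondrial mRNA and -0.072 to 0.23 with 1 library left out. The ratio of mRNA to nuclear protein-coding TPM (-0.06) was 0.036 with copies added and -0.19 to 0.070 with 1 library left out, and that of mt-Nd6 to the other mRNAs (-0.15) was -0.40 to 0.050. After median-ratio scaling, mt-Atp8 stood at -0.0028, mt-Nd4 at -0.026, mt-Nd4l with its copy at -0.026 and Tfam at -0.075; after protein-coding scaling they stood at -0.030, -0.053, -0.054 and -0.10, mt-Cytb at -0.013 and mt-Nd4 with its copy at -0.015. With 1 library left out, the log2 differences ran from -0.014 to 0.96 for mt-Co2, -0.58 to 0.14 for mt-Co3, -0.95 to 0.13 for mt-Nd3, -0.055 to 0.20 for mt-Nd4, -0.28 to 0.16 for mt-Nd6, -0.12 to 0.028 for Polrmt and -0.081 to 0.11 for Tfam. With copies added they ran from -0.16 to 0.085 for mt-Nd3, -0.073 to 0.25 for mt-Nd4l and -0.0048 to 0.32 for mt-Nd4. The cause of these changes of sign was not tested. The tRNA share and ratio gave no value under any setting. Without depth, no detection limit can be set for genes at 0.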
